A study of Homo sapiens with 12 samples.

Results

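The 76 genes described here encode the proteins of the mitochondrial ribosome that carry the symbol stem MRPL or MRPS followed by a number and, in a few, a letter from A to C. All 76 rows of that name, of 23615 gene rows in all, averaged 1 FPKM or more across the 12 libraries, so none was lost to the filter on low values. FPKM are fragments scaled to transcript length and to the mapped fragments of a library, so genes can be compared per length. By the role of the proteins in the human mitochondrial ribosome, 49 belong to the large subunit, 26 to the small subunit, and MRPS36 to neither. Despite their names, MRPS30 and MRPS18A are proteins of the large subunit, and MRPS36 is a component of the alpha-ketoglutarate dehydrogenase complex.

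The study sequenced polyadenylated RNA of the cell line HEK293T, derived from human embryonic kidney and expressing SV40 T antigen, to ask how an inhibitor of the decapping enzyme Dcp2 alters mRNA half-life. Cells received the macrocyclic inhibitor CP25 at 2 μM, or an equal volume of the peptide storage buffer (vehicle), for 18 h. Actinomycin D, which stops transcription, was given to all cells at 5 μg/mL, and RNA was isolated 0 h and 2 h later. Each of the 4 groups (vehicle and CP25 at each time) has 3 libraries. The labels do not state that the libraries of a group came from separate cultures. The spread that a p-value is set against may therefore be technical.

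Mitochondria keep their own ribosome, which translates the few mRNAs of the mitochondrial genome into core subunits of the respiratory chain and ATP synthase. All its proteins are encoded in the nucleus, translated in the cytosol and imported, and they are needed in fixed proportions within each subunit. Some members descend from bacterial ribosomal proteins, and others are found only in mitochondrial ribosomes. In the decay of mRNA, Dcp2 removes the 5′ cap and opens the body of the transcript to degradation from that end.

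Both replicate 1 libraries at 0 h stood apart for these genes. In vehicle, replicate 1 held the lowest value of its group for 67 of 76 members, against 48.0% of all genes tested. In CP25, replicate 1 held the lowest value for 74 of 76 members, against 41.2% of all genes tested. The members' median was 47.4 FPKM in the vehicle library and 47.5 FPKM in the CP25 library, and 54.2 to 56.1 FPKM in the other 0 h libraries. Cytoplasmic ribosomal protein genes and oxidative phosphorylation genes were low in the same libraries. Estimated depth, in units of 10⁶ fragments, was 13.04 in vehicle replicate 1, 19.3 in CP25 replicate 1, 19.0 to 21.8 in the other 0 h libraries and 21.5 to 29.1 at 2 h. The part of these differences in the results was not tested. No member rested on fewer than 275 estimated fragments in any library. Of 6 marker genes of HEK293 cells, 6 were above 1 FPKM. Of 6 haematopoietic and 3 hepatocyte markers, 0 reached it. Of 4 fibroblast markers 1 did, the collagen gene COL1A1 at 3.23 FPKM.

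**Figure D1:**
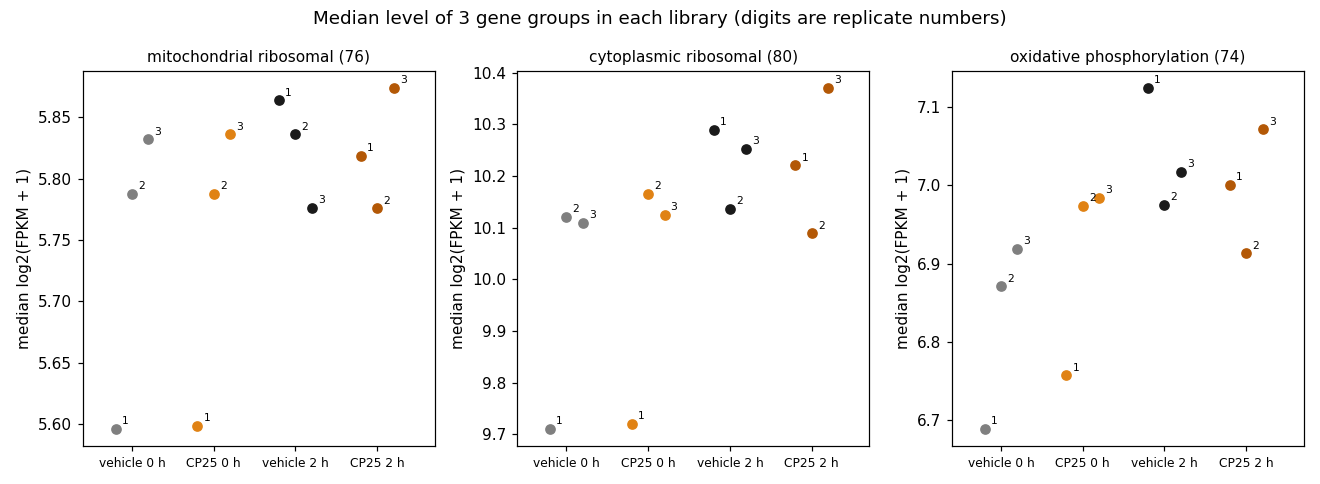
Median log2(FPKM + 1) of the mitochondrial ribosomal, cytoplasmic ribosomal and oxidative phosphorylation genes in each of the 12 libraries, with replicate numbers beside the points; each panel has its own axis range. The 2 libraries numbered 1 at 0 h lie lowest in all 3 panels.

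The members were expressed at similar levels. Their median over the 12 libraries was 55.4 FPKM, and 60 of 76 (78.9%) lay within 2-fold of it. The same share was 68.8% of 80 cytoplasmic ribosomal protein genes, 59.5% of 74 nuclear oxidative phosphorylation genes and 38.2% of all 12183 genes tested (mean over the libraries of 1 FPKM or more). From lowest to highest the members spanned 14.6-fold, the oxidative phosphorylation genes 38.3-fold and the cytoplasmic ribosomal protein genes 250-fold. The cytoplasmic ribosomal protein genes had a median of 1085 FPKM. Median levels of the subunits were close, at 53.8 FPKM for the large and 56.9 FPKM for the small. These levels are a description, with no test.

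**Figure D2:**
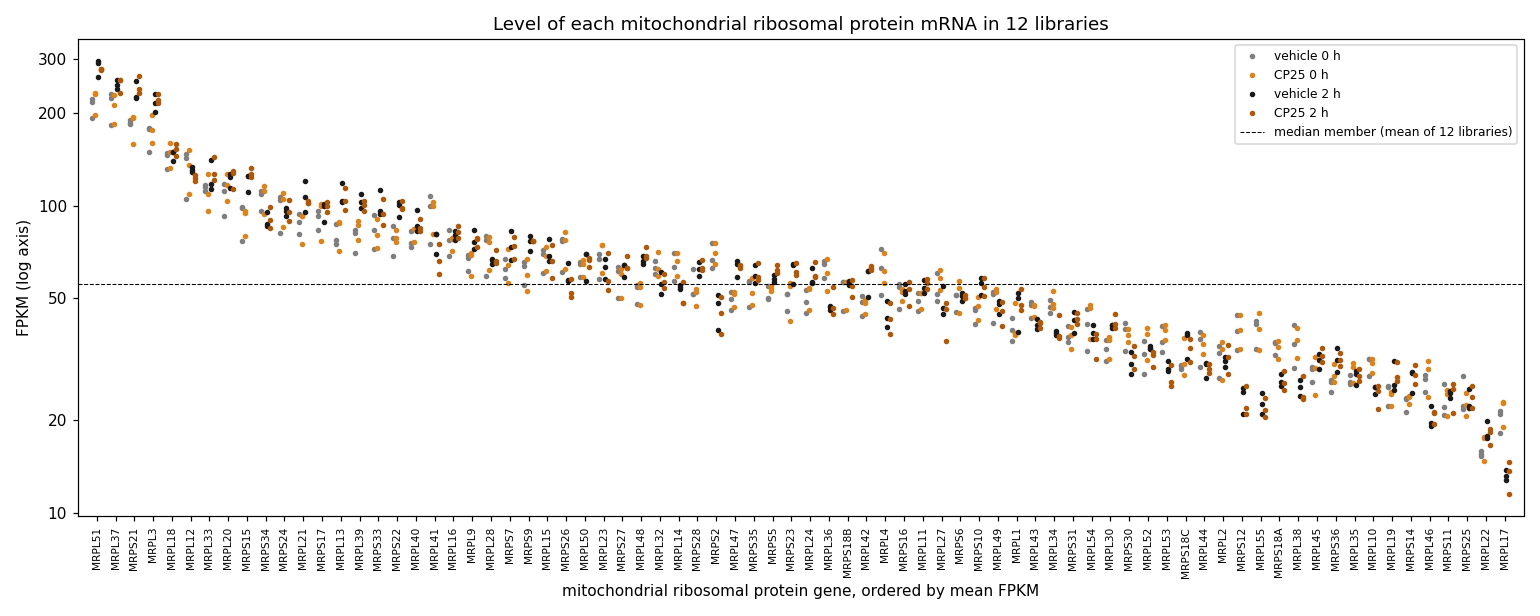
FPKM (log axis) of each of the 76 genes in all 12 libraries, ordered by mean level and coloured by group. Most genes sit close to the dashed line at the median of 55.4 FPKM, and the highest and lowest stand out at either end.

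The 5 highest were MRPL51 (249 FPKM), MRPL37 (230 FPKM), MRPS21 (213 FPKM), MRPL3 (197 FPKM) and MRPL18 (147 FPKM), as means of 12 libraries. MRPL51 and MRPL37 are mitochondria-specific proteins of the large subunit, MRPL3 and MRPL18 have bacterial counterparts there, and MRPS21 is a small-subunit protein. The 5 lowest were MRPL17 (17.1 FPKM), MRPL22 (17.1 FPKM), MRPS25 (23.4 FPKM), MRPS11 (23.7 FPKM) and MRPL46 (23.9 FPKM). MRPL17 and MRPL22 lie around the exit of the tunnel through which the nascent chain leaves, and MRPL46 is in the central protuberance. Members of one region of the particle differed in mRNA level by several-fold. Within the central protuberance the range was from 23.9 FPKM for MRPL46 to 147 FPKM for MRPL18. In the L7/L12 stalk, which recruits translation factors, MRPL12 reached 130 FPKM, whereas the other 4 members lay between 27.6 and 52.2 FPKM. MRPL12 is the L7/L12 protein itself, the one present in several copies per ribosome.

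After 2 h of actinomycin D the members kept about the share of the mRNA pool they had at 0 h. The median member had a log2 ratio, 2 h over 0 h, of 0.09 in vehicle and 0.08 in CP25, while all 12183 genes tested had medians of -0.18 and -0.16. Each ratio is a difference of mean log2(FPKM + 1), and because FPKM is a share of a library, a ratio of 0 means loss at the pace of the pool and not an absence of decay. The values at 0 h and at 2 h come from separately deposited tables, so they are described without a test. In bulk libraries, fewer cells and less RNA per cell cannot be told apart, and a share of the library measures neither.

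In vehicle, 48 of 76 members had a ratio above 0, against 32.0% of all genes tested, and 72 of 76 lay between -0.5 and 0.5, against 73.7%. In CP25, 44 of 76 members lay above 0, against 34.1%, and 69 of 76 lay between -0.5 and 0.5, against 74.7%. No member had a log2 ratio below -1 in either treatment, a value that 885 of all genes tested passed in vehicle and 880 in CP25. The distance from the other genes depended on the scaling. With FPKM as deposited, members exceeded the median of all genes tested by 0.27 in vehicle and 0.24 in CP25, a distance that centring cannot alter. With no filter on low values the distance from all 18968 genes was 0.14 and 0.12. After quantile normalization of the 12 libraries, that distance was 0.00 in vehicle and -0.04 in CP25, and 42 of 76 members lay above 0 in each treatment, against 56.0% and 56.4% of all genes tested. With the replicate 1 libraries at 0 h left out, the members' median was 0.02 in vehicle and 0.01 in CP25, and that of all genes tested -0.17 and -0.16.

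Individual members differed widely. In 20 of 76 members the 3 libraries at 2 h were all above the 3 at 0 h in both treatments, against 11.6% of all genes tested. In 14 of 76 they were all below in both treatments, against 39.5%. With each library centred on its median gene these counts were 49 and 3, against 38.6% and 17.7% of all genes tested. With the replicate 1 libraries at 0 h left out they were 20 and 25, against 12.7% and 44.1%. Centring added 0.34 in vehicle and 0.33 in CP25 to each member's ratio, so the order of the members stood and a sign near 0 did not. The 6 lowest and the 6 highest members, chosen by these ratios, kept their direction in both treatments with centring and with quantile normalization. For the 6 highest, centring could not change it, since it only raised the ratios. A pseudocount of 0.1 moved their ratios little, and no filter on low values did not move them.

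MRPL55, a large-subunit protein related to bacterial L31, had the lowest ratio. In vehicle its libraries read 34.0, 41.2 and 42.0 FPKM at 0 h and 21.0, 22.6 and 24.6 FPKM at 2 h. In CP25 they read 34.0, 39.6 and 44.7 FPKM at 0 h and 20.5, 21.7 and 23.6 FPKM at 2 h. The times did not overlap in either treatment, and the mean at 2 h was 58.2% of that at 0 h in vehicle and 55.6% in CP25.

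MRPS12, the small-subunit protein of the decoding site, was next. Its vehicle libraries read 33.9, 39.1 and 44.2 FPKM at 0 h and 20.9, 24.8 and 25.4 FPKM at 2 h. Its CP25 libraries read 34.2, 39.3 and 44.1 FPKM at 0 h and 20.9, 22.0 and 25.9 FPKM at 2 h. At 0 h the treatments were nearly the same library by library, and at 2 h 60.7% of the level remained in vehicle and 58.5% in CP25.

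MRPL17, MRPS2, MRPL4 and MRPL38 completed the 6 lowest, all with times that did not overlap in both treatments. MRPL17 stood at 65.7% of its 0 h mean in vehicle and 61.3% in CP25. MRPS2, a protein of the small subunit with a bacterial counterpart, stood at 67.8% and 63.5%. MRPL4, a large-subunit protein with a bacterial counterpart, stood at 71.0% and 69.1%. MRPL38, a mitochondria-specific protein of the central protuberance, stood at 72.3% and 69.2%.

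At the other end stood MRPS15, a small-subunit protein with a bacterial counterpart. Its vehicle libraries read 76.8, 98.3 and 99.3 FPKM at 0 h and 125, 125 and 111 FPKM at 2 h. Its CP25 libraries read 79.96, 96.0 and 94.4 FPKM at 0 h and 127, 124 and 133 FPKM at 2 h. All 6 libraries at 2 h were above all 6 at 0 h, and the mean at 2 h was 131% of that at 0 h in vehicle and 142% in CP25.

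MRPL13, a large-subunit protein, read 74.9, 87.1 and 77.1 FPKM in vehicle at 0 h and 119, 104 and 103 FPKM at 2 h, or 136% of the 0 h mean. In CP25 it read 71.5, 88.0 and 88.5 FPKM at 0 h and 104, 96.6 and 115 FPKM at 2 h, or 127%. MRPL51, the most abundant member, stood at 134% in vehicle and 126% in CP25. MRPS21 stood at 125% and 135%, MRPL48, of the central protuberance, at 127% and 133%, and MRPL3 at 128% and 125%. None of these 6 had times that overlapped in either treatment.

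**Figure D3:**
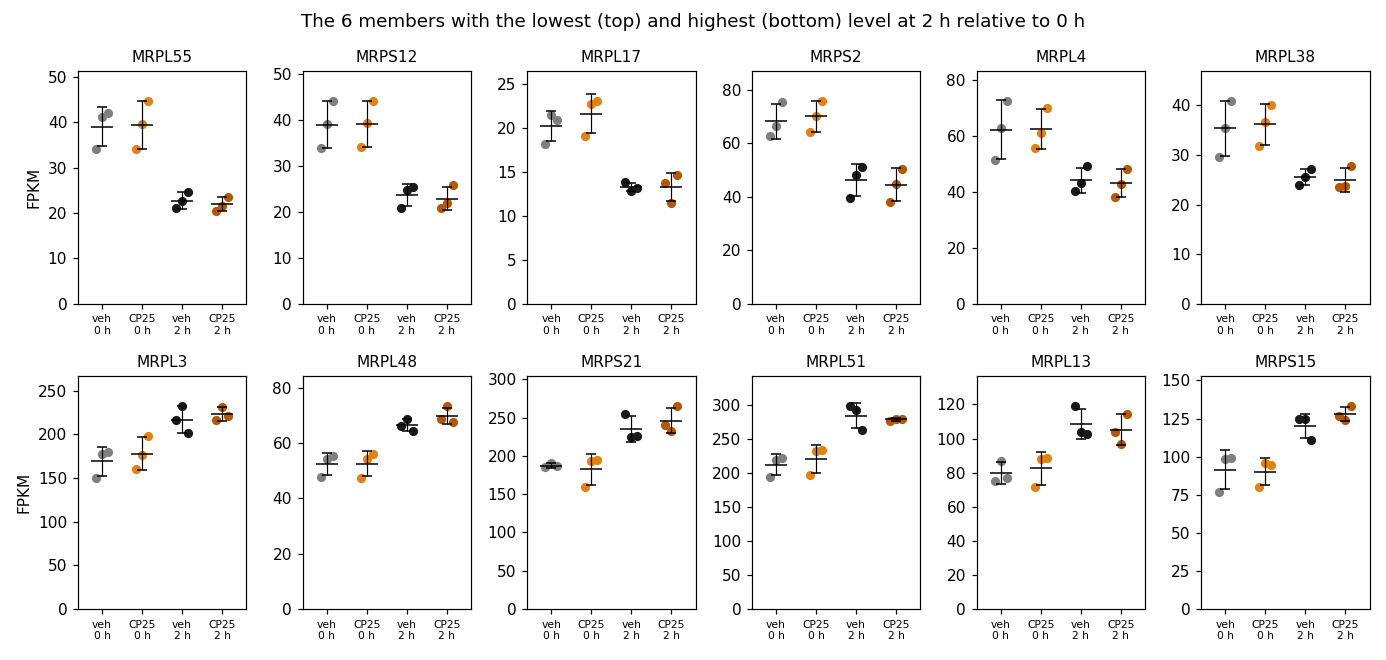
FPKM in each library, with mean and SD (n = 3), of the 6 members with the lowest (top row) and the 6 with the highest (bottom row) level at 2 h relative to 0 h; the axes start at 0. In each panel the libraries at 2 h lie wholly below (top) or wholly above (bottom) those at 0 h of the same treatment.

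The order of the members came out alike in both treatments. Across the 76 genes the log2 ratios in vehicle and in CP25 had Pearson's r = 0.95 and Spearman's rho = 0.94, and the ratio in CP25 minus that in vehicle had an SD of 0.09. Each gene's ratios share a transcript and a pair of tables, so this is a description over genes and not over replicates. Over all genes tested r was 0.86 and rho 0.93, so by rank the treatments were about as close over all genes as over the members.

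**Figure D4:**
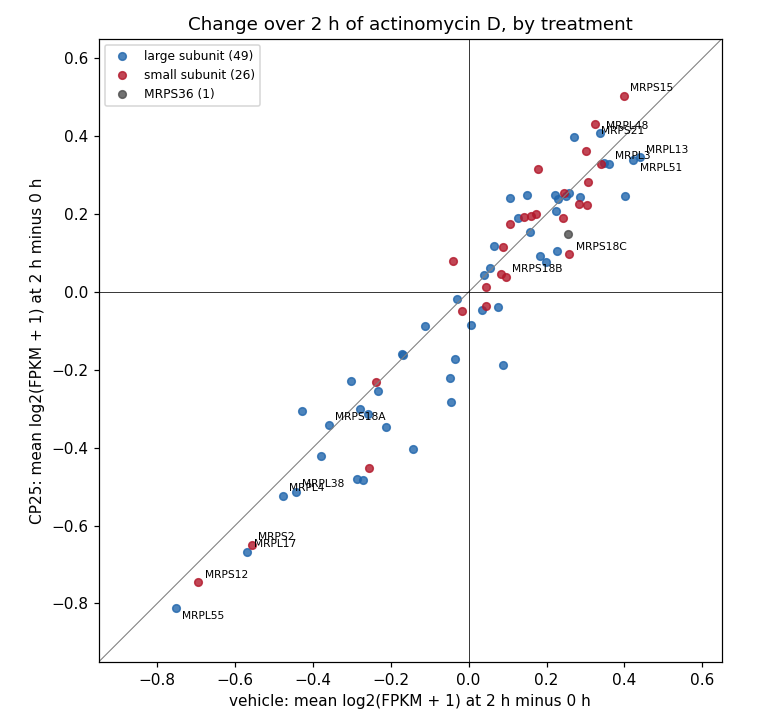
Log2 ratio of 2 h to 0 h for each member in vehicle (x axis) and CP25 (y axis), as differences of mean log2(FPKM + 1), coloured by subunit; the grey diagonal marks equal ratios. Points follow the diagonal from MRPL55 (-0.75 and -0.81) to MRPS15 (0.40 and 0.50).

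By subunit, the median ratio was 0.04 in vehicle and -0.04 in CP25 for the 49 large-subunit genes, and 0.15 and 0.18 for the 26 small-subunit genes. Ratios above 0 were counted in 27 and 23 of the 49, and in 20 and 20 of the 26. The 48 genes with a bacterial counterpart had medians of 0.09 and 0.07, and the 27 mitochondria-specific genes 0.09 and 0.08. These medians carry no test, and with centring all of them lay above 0. Of the large-subunit regions, the 5 genes of the L7/L12 stalk had medians of -0.05 and -0.28, the 6 of the central protuberance -0.05 and -0.18, and the 6 around the tunnel exit 0.18 and 0.15. MRPL45, which anchors the ribosome at the inner membrane beside that exit, stood at 109% of its 0 h mean in vehicle and 114% in CP25. MRPL12 stood at 99.3% and 93.3%, with overlapping times in both and a sign that turned with the scaling.

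The 3 paralogs of bacterial S18, which occupy different places in the particle, had unlike values. MRPS18A, the paralog in the large subunit, read 32.7, 35.8 and 35.9 FPKM in vehicle at 0 h and 25.8, 28.4 and 26.6 FPKM at 2 h. In CP25 it read 31.6, 34.7 and 36.4 FPKM at 0 h and 25.1, 26.4 and 28.95 FPKM at 2 h, so times did not overlap in either treatment. It stood at 77.4% of its 0 h mean in vehicle and 78.3% in CP25. MRPS18B stood at 106% and 103%, with overlapping times in both. MRPS18C stood at 121% in vehicle, without overlap, and at 107% in CP25, with overlap. MRPS30, the other large-subunit protein with a small-subunit name, stood at 80.5% and 85.1%, without overlap, though centring each library turned its ratio above 0, and MRPS36 at 120% and 111%, with overlap in CP25.

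The members' ratios were lower in transcripts of higher GC content. GC content, taken from 1 GENCODE 29 transcript per gene and found for all 76, had r = -0.59 (rho = -0.59) with the mean of the ratios in vehicle and CP25, against r = -0.26 (rho = -0.31) over the 11293 tested genes with a value. The 25 members of lowest GC (35.0% to 45.8%) had a median ratio of 0.25 in vehicle and 0.24 in CP25. The middle 26 had 0.09 and 0.09, and the 25 of highest GC (53.0% to 71.9%) had -0.17 and -0.28. MRPS15 (53.0% GC) and MRPL17 (47.7% GC) lay away from that order. The length of the 3′ untranslated region showed r = 0.13, and mean level r = 0.42 (rho = 0.40), against 0.36 (rho = 0.41) for level over all genes tested. The genes of these correlations share libraries, and the part of GC content or level in the ratios was not tested.

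Other genes of mitochondrial translation were read beside the members. Of 7 mitochondrial ribosomal proteins with other symbols, DAP3, a GTP-binding small-subunit protein, had the highest ratio, at 132% of its 0 h mean in vehicle and 133% in CP25. GADD45GIP1, a large-subunit protein, had the lowest, at 77.8% and 82.3%, and AURKAIP1 the highest level, at 77.0 FPKM. Their medians, 0.12 and 0.05, were near those of the members. The 25 assembly factors had lower medians, -0.24 in vehicle and -0.15 in CP25, which the shift from centring would also turn above 0. Among them the helicase DDX28 stood at 32.5% and 29.3%, YBEY at 112% and 111%, and MALSU1 had the highest level, at 59.2 FPKM. The 15 translation factors and regulators had medians of 0.14 and 0.16, from C12orf65, of the release factor family, at 53.2% and 54.4% to the initiation factor MTIF2 at 137% and 138%. TUFM, the elongation factor, had their highest level, at 157 FPKM. Oxidative phosphorylation genes had medians of 0.15 and 0.08, and cytoplasmic ribosomal protein genes 0.35 and 0.28. After quantile normalization the latter were 0.06 and -0.00.

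No member was called for a response to CP25. At 0 h, 0 of 76 passed an adjusted p of 0.05 in limma's moderated test, adjusted by Benjamini-Hochberg over all genes tested, against 0% of 12365 genes. At 2 h, 0 of 76 passed, against 0.00851% of 11745 genes (1 gene, no member). For the difference of the CP25 effects (the change at 2 h minus that at 0 h, in all 12 libraries), 0 of 76 passed, against 0% of 12183 genes. At an unadjusted p under 0.05 there were 0 members in all 3 comparisons, against 0.712% (0 h), 0.741% (2 h) and 1.26% (difference) of all genes tested. By limma without the trend there were also 0, against 0.914%, 0.877% and 1.4%. With so few genes at that level, a count of 0 does not set the members apart. Where nothing differs, a share near 0.05 of all genes would be expected there. The p-values of these fits thus ran large, and a lack of calls in them does not show a lack of response. The reason was not tested. The authors' deposited comparison gives no member a p-value under 0.05, with 0.164 the smallest at 0 h and 0.112 at 2 h. Of all 23615 genes, 117 were under 0.05 at 0 h and 74 at 2 h, so this too does not set the members apart.

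Differences were small. The members' log2 differences between CP25 and vehicle ranged from -0.11 to 0.17 at 0 h and from -0.20 to 0.12 at 2 h, and the difference of effects from -0.28 to 0.14. The 95% intervals, taken gene by gene, lay within 1.5-fold either way for 76 of 76 members at 0 h, 76 of 76 at 2 h and 72 of 76 for the difference. The same was so for 95.6%, 96.3% and 86.7% of all genes tested. Smaller changes remained within the error, and their absence is not shown.

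The medians were 0.02 at 0 h, 0.01 at 2 h and -0.03 for the difference. Differences above 0 were counted in 53 of 76 members at 0 h, against 47.5% of all genes tested, in 40 of 76 at 2 h, against 53.7%, and in 29 of 76 for the difference, against 53.6%. At 0 h they were counted in 67 of 80 cytoplasmic ribosomal protein genes and 69 of 74 oxidative phosphorylation genes. In these 2 lists the counts were 36 and 24 at 2 h, and 21 and 9 for the difference. The members' count at 0 h moved when 1 library was left out. It was 23 without vehicle replicate 1, against 39.2% of all genes tested, and 23 without CP25 replicate 3, against 44.2%, and the median was then -0.04 and -0.03. Without both replicate 1 libraries it was 52, against 41.3%, with a median of 0.04. By replicate number at 0 h, CP25 was higher in 3 of 3 for 19 members, against 12.1% of all genes tested. It was lower in 3 of 3 for 1 member, against 18.2%.

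**Figure D5:**
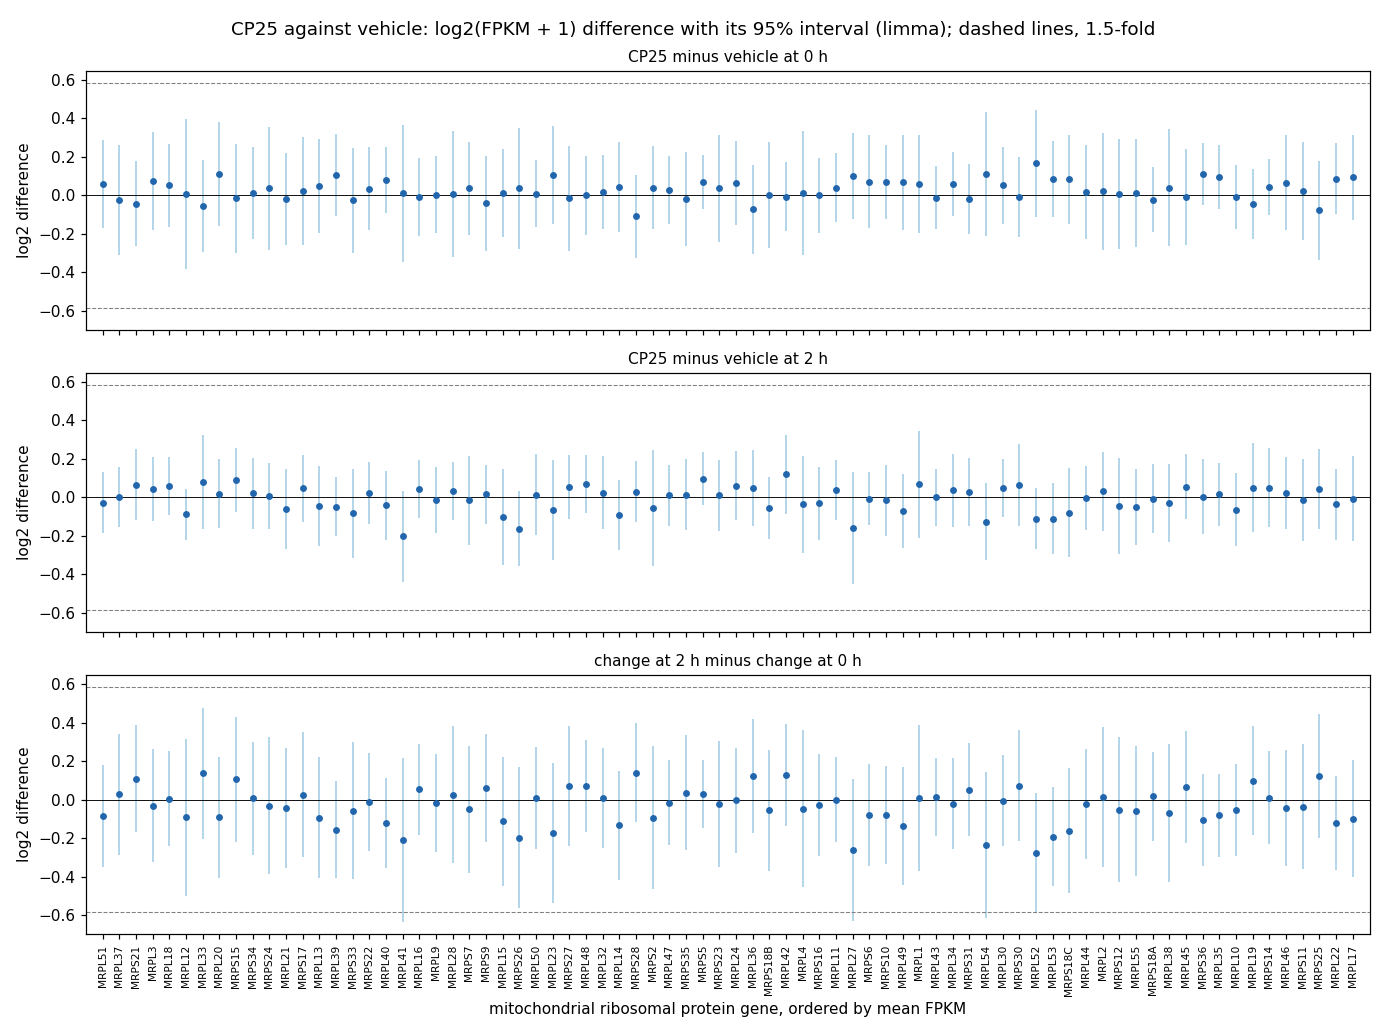
Log2(FPKM + 1) differences of the 76 members, ordered by mean level, with 95% intervals from limma, for CP25 minus vehicle at 0 h (top), at 2 h (middle) and for the change at 2 h minus that at 0 h (bottom); the dashed lines mark 1.5-fold. The points lie between -0.28 and 0.17, and in the bottom panel 4 intervals cross a dashed line.

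At 0 h, 0 members had all 3 CP25 libraries above the vehicle libraries, against 1.23% of all genes tested, and 0 had all 3 below, against 2.85%. At 2 h, MRPL42 and MRPS5 had CP25 libraries that were all above, against 2.47%, and MRPL12 and MRPL52 had them all below, against 1.75%. MRPL42, a mitochondria-specific large-subunit protein, read 61.5, 61.5 and 50.4 FPKM in vehicle and 61.6, 63.7 and 62.6 FPKM in CP25 (log2 difference 0.12 ± 0.09 SE). MRPS5, a small-subunit protein with a bacterial counterpart, read 59.5, 57.8 and 56.6 FPKM in vehicle and 60.5, 61.9 and 63.9 FPKM in CP25 (0.10 ± 0.06). MRPL12 read 131, 133 and 129 FPKM in vehicle and 120.7, 122.9 and 126.4 FPKM in CP25 (-0.09 ± 0.06).

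The members with the smallest p-values are given for their values only, since none passed. MRPL52, a mitochondria-specific protein of the large subunit, read 28.2, 33.0 and 36.2 FPKM in vehicle and 31.5, 38.2 and 40.1 FPKM in CP25 at 0 h. At 2 h it read 34.1, 34.3 and 34.9 FPKM in vehicle and 32.5, 29.8 and 33.4 FPKM in CP25. CP25 was thus above vehicle in 3 of 3 replicate numbers at 0 h and below in 3 of 3 at 2 h. Its log2 difference was 0.17 ± 0.12 (SE) at 0 h and -0.11 ± 0.07 at 2 h, and the difference of effects was -0.28 ± 0.14, from -0.59 to 0.03 (limma, adjusted p = 1.00).

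MRPL41, a mitochondria-specific large-subunit protein, had the largest log2 difference at 2 h. It read 69.7, 80.8 and 81.1 FPKM in vehicle and 60.1, 66.2 and 74.99 FPKM in CP25, a difference of -0.20 ± 0.10 (limma, adjusted p = 1.00), with overlapping groups. MRPS26, a mitochondria-specific small-subunit protein, read 57.3, 57.0 and 65.1 FPKM in vehicle and 50.3, 52.1 and 57.6 FPKM in CP25, a difference of -0.16 ± 0.08, also with overlap. At 2 h MRPL54 (-0.13), of the L7/L12 stalk, followed on the lower side, and MRPS15 (0.09), MRPL48 (0.07) and MRPL18 (0.06) on the higher side. At 0 h the smallest p-values belonged to MRPS36 (0.11), MRPL35 (0.10), MRPL39 (0.11) and MRPS5 (0.07) besides MRPL52 on the higher side, and to MRPS28 (-0.11), MRPL36 (-0.07), MRPS25 (-0.08), MRPL19 (-0.05) and MRPL33 (-0.06) on the lower. For the difference of effects they were MRPL53 (-0.19), MRPL27 (-0.26), MRPL54 (-0.24) and MRPL39 (-0.16) besides MRPL52, and MRPS28 (0.14), MRPL42 (0.13), MRPL36 (0.12), MRPL33 (0.14) and MRPS21 (0.11).

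A fit with the replicate number as a block left the calls at 0 of 76 in all 3 comparisons. Over all genes tested, same-numbered libraries deviated together at 2 h. The members' median deviations from the group mean did not, at 0.01 and -0.05, 0.04 and -0.01, and -0.05 and 0.06 (vehicle and CP25). At 0 h they were -0.12 and -0.15, 0.06 and 0.04, and 0.08 and 0.10. At 2 h the replicate block brought 4 members to an unadjusted p under 0.05, all lower in CP25. They were MRPL41, MRPS26, MRPL53 and MRPL52 (limma, smallest adjusted p = 0.716). In that fit 3.29% of all genes tested were lower at such a p, a share near the members' own. The 4 were read off after their values were seen. For the difference of effects the replicate block gave 9 such members, all lower, against 4.24% of all genes tested, with MRPL52 (adjusted p = 0.271), MRPS26 and MRPL41 first. At 0 h it gave 7, all higher, against 2.61% of all genes tested: MRPL52, MRPL20, MRPL23, MRPL39, MRPL27, MRPL17 and MRPL54. At 0 h and for the difference the members' count lay above the share of all genes, and none passed after adjustment.

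By subunit, large-subunit genes had a median CP25 difference of 0.03 at 0 h and -0.00 at 2 h, and small-subunit genes 0.02 and 0.01. The 7 mitochondrial ribosomal proteins with other symbols, the 25 assembly factors and the 15 translation factors also gave 0 calls in the 3 limma comparisons, and 0 genes at an unadjusted p under 0.05.

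Promoter sequence was not used to choose the genes, and some of the members' promoters hold short elements known from genes of this kind. RefSeq windows on GRCh38.p14, from 250 bases before to 50 bases after the annotated start, were found for 67 of 76 members. The octamer AAGATGGC, the core of the site of the transcription factor YY1, was present on either strand in 21 of 67 members (31.3%). The share was 10.9% of 64 cytoplasmic ribosomal protein genes, 18.0% of 50 oxidative phosphorylation genes, 6.94% of 8933 tested genes and 3.52% of all 27305 genes with a window. In 16 of 67 members (23.9%) it lay in the sense direction within the first 50 transcribed bases, its first base between positions 7 and 36 counted from the start. That placement occurred in 18.0% of the oxidative phosphorylation genes, 3.13% of the cytoplasmic ribosomal protein genes and 3.95% of the tested genes. The shares of promoters are a description, with no test.

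The following 30-base windows show it in the members that the text names for their level, ratio or role, with the octamer in capitals.
MRPL22 (chr5:154941093-154941122, plus strand): gtagcgggagggcgaAAGATGGCggcggca
MRPL38 (chr17:75904860-75904889, minus strand): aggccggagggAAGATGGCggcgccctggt
MRPL45 (chr17:38297170-38297199, plus strand): tttgcgggaacAAGATGGCagcccccatac
MRPL46 (chr15:88467362-88467391, minus strand): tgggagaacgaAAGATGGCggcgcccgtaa
MRPL51 (chr12:6493223-6493252, minus strand): gggtaaggcccAAGATGGCtgtcttcgcct
MRPS18A (chr6:43687764-43687793, minus strand): gtaggtttttgAAGATGGCggccctcaagg
MRPS18B (chr6:30617852-30617881, plus strand): gggcgtacgtcAAGATGGCggcgtctgtat
MRPS30 (chr5:44808949-44808978, plus strand): aatcgcgggcaAAGATGGCggcggccaggt

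The octamer contains the letters ATG, and whether these are the start codon of the mRNA was not examined. The octamer occurs in members at both ends of the range, in MRPL51, the highest, in MRPL46 and MRPL22, among the lowest, and in MRPL38, among the lowest ratios of 2 h to 0 h. Over 2 h the 21 members with the octamer had a median ratio of 0.09 in vehicle and 0.04 in CP25, and the 46 without it 0.10 and 0.11. Their median levels were 53.8 and 56.4 FPKM. A match describes the letters of the window and not binding by YY1, and its part in level or ratio was not tested.

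The heptamer CCGGAAG, a core site of ETS factors, was present on either strand in 29 of 67 members (43.3%), against 35.9% of cytoplasmic ribosomal protein genes, 23.1% of tested genes and 12.2% of all genes with a window. Members with and without it had median ratios of 0.11 and 0.09 in vehicle. The octamer GCATGCGC, a core site of NRF1, a regulator of genes for mitochondrial proteins, was found in 6 of 67 (8.96%), against 6.78% of tested genes, and in 20.0% of oxidative phosphorylation genes.

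In 54 of 64 cytoplasmic ribosomal protein genes (84.4%) a C followed by at least 4 C or T began within 5 bases of the annotated start, the pyrimidine run that marks mRNAs of the cytosolic translation machinery. It was found in 16 of 67 members (23.9%), against 29.9% of tested genes. Windows from 10 bases before the start to the base 20 after it show a start without the run in the 3 highest such members. They show the run, in capitals, in MRPS21, the highest member that has it, and in 3 abundant cytoplasmic ribosomal protein genes. The genes were picked by whether they have it. MRPL3 also holds a C followed by at least 4 C or T, but it begins more than 5 bases before the start and was not counted.
MRPL51 (chr12:6493243-6493272, minus strand): cggtgcgcccacagctgcctgggtaaggcc
MRPL37 (chr1:54200157-54200186, plus strand): ggcgcccggtctcattcgttcccagcaggc
MRPL3 (chr3:131502952-131502981, minus strand): tctttccgtcgcagagagcatcggccggcg
MRPS21 (chr1:150293851-150293880, plus strand): ttccggtagtgagaaCCCTTCCggtgggct
RPL39 (chrX:119791611-119791640, minus strand): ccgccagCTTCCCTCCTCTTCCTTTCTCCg
RPL41 (chr12:56116623-56116652, plus strand): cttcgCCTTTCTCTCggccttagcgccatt
RPS6 (chr9:19380217-19380246, minus strand): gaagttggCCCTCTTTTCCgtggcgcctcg

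Members with the run had a median ratio of 2 h to 0 h of 0.04 in vehicle and -0.10 in CP25, and those without it 0.11 and 0.10.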

How the data were processed

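The deposited FPKM values were made by the authors, in a table for 0 h and one for 2 h with 1 column per library. The submitters' processing notes name Bowtie2 2.2.3, CASAVA 1.8.2, Trimmomatic 0.36 and the hg19 build. Which program computed FPKM is not given in the sources used here. A deposited comparison by the authors gives a p-value per gene for CP25 against vehicle at each time, taken here as unadjusted. Genes were chosen by symbol, and the members, gene lists and tests were chosen with earlier results of these data known.

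From the FPKM, log2(FPKM + 1) was tested with limma 3.58.1 in R 4.3.3 (moderated variances with a trend in the mean, groups within a table, and an interaction over all 12 libraries), for genes averaging 1 FPKM or more, at a Benjamini-Hochberg adjusted p of 0.05. Tests ran on simulated data first. Same-numbered libraries deviated together at 2 h (correlations 0.35, 0.45 and 0.15 over genes tested) but not in every pair at 0 h (0.26, -0.01 and 0.12). No read counts were used here, so depth was estimated from the smallest step of FPKM in genes with 1 transcript, using GENCODE 29 lengths. Promoter windows came from RefSeq (GRCh38.p14). Members named with values were those past the threshold, the 5 smallest p-values per direction and comparison, the 6 highest and 6 lowest ratios of 2 h to 0 h, the 5 highest and 5 lowest levels, and 8 genes of structural interest. In 3 lists of related genes, the highest and lowest ratio and the highest level were named. Alternatives were a pseudocount of 0.1, no filter, centred or quantile-normalized libraries, no trend, the replicate number as a block, and leaving out each library; leaving out both replicate 1 libraries at 0 h was added after seeing the data. Python 3.11.15 was used for the rest.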

Additional observations from a re-analysis of the deposited data

How the results depend on the processing

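No member was called in any comparison under any alternative run, the replicate block and the authors' p-values with adjustment included. Over all genes tested the limma fits called from 0 to 7 genes each (at most 7 of 11770), so this does not set the members apart. The 2 h to 0 h ratios moved with scaling: centring each library on its median gene raised the members' median to 0.43 in vehicle and 0.41 in CP25, and the counts of members without overlap in both treatments became 49 higher and 3 lower (38.6% and 17.7% of all genes tested), since it adds a constant to every ratio. Leaving out both replicate 1 libraries at 0 h, chosen after seeing the data, gave 25 lower (44.1% of all genes tested). With no filter on low values the members' distance from the median gene was 0.14 in vehicle and 0.12 in CP25, against 0.27 and 0.24 with it, since more low genes enter. Leaving out 1 library at a time, the count of members above 0 ran from 23 to 73 for CP25 against vehicle at 0 h and from 11 to 51 for the difference of effects, where it was 51 without vehicle replicate 1 at 0 h, 18 without replicate 2 and 17 without replicate 3, and 11 and 49 without CP25 replicate 1 and replicate 3 at 0 h. The cause was not tested. The 30 named values of CP25 effects were picked for the smallest p in these data. The replicate block, the fit without the trend and no filter on low values could not alter these log2 differences. Of the 30 values, 27 kept their sign under all alternatives. The others, all at 0 h, changed sign only when 1 library was left out (CP25 replicate 1 for MRPL36 and MRPL33, vehicle replicate 1 for MRPS25), with ranges of -0.15 to 0.0171 for MRPL36, -0.14 to 0.03226 for MRPS25 and -0.16 to 0.04025 for MRPL33. The smallest adjusted p of any named value was 0.271, in the replicate block. With 3 libraries a group, changes below and above 1.5-fold could go uncalled. The bound of 1.5-fold belongs to the intervals taken gene by gene, not to the adjusted calls. At 0 h the smallest unadjusted p of 12365 genes was 1.1e-04 (limma), and it did not pass after adjustment. The size of change needed for a call in a single member was not tested. Each member had at least 275 estimated fragments in each library.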
